A study of Drosophila melanogaster with 3 samples.

Results

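Between the genes of white prepupae of Drosophila melanogaster, the Lpt-GFP fusion protein was found at 647 sites that lay near genes but outside them. The sites were chosen by position only: the summit of a reproducible peak lay over 1 kb and at most 10 kb from the nearest annotated transcription start site (TSS), and inside no annotated gene. They were 647 of 6110 peaks (10.6%) in the authors' list selected by irreproducible discovery rate (IDR), a selection of peaks that rank alike in different replicates. The same rule applied to the 6110 peaks of highest signal in each replicate list found 649, 593 and 720 sites in replicates 1, 2 and 3, which is 10.6%, 9.71% and 11.8% of those peaks and 10.7% ± 1.04 (SD, n = 3) on average. Near the lower limit, 20 intergenic summits lay at 900 to 1000 bp from a TSS (median signal 179) and 26 at 1000 to 1100 bp (median signal 158). Near the upper limit, 1 lay at 9900 to 10000 bp and 3 at 10000 to 10100 bp.

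All samples belonged to 1 group of 3 biological replicates. Whole animals at the white prepupa stage, with males and females pooled, came from a transgenic line that stably carries Lpt with GFP fused to its C terminus, and chromatin was precipitated with an antibody against GFP. Neither animals without the fusion protein nor an input sample was analysed here, so enrichment unrelated to Lpt-GFP was not measured, and signal from all tissues of the animal is mixed. The labels give the age as unknown and do not say which copies of Lpt besides the fusion the animals carry. The replicate lists held 27893 to 30000 peaks and background regions, and their depth in reads is unknown.

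Lpt, short for Lost PHDs of trr, works within the COMPASS-like complex of Trr, which places methyl groups on lysine 4 of histone H3. In flies, Trr complexes are known for the monomethylated form of this mark at enhancers, the stretches of DNA that act on promoters from a distance. Trr has also been described as a coactivator of the ecdysone receptor. The white prepupa opens metamorphosis after a pulse of ecdysone, when imaginal discs evert and larval tissues begin to break down.

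The summit sequences of the strongest of these sites show what the letters under Lpt-GFP look like away from promoters. The 101 bp centred on the summit are given for the 8 sites of highest signal outside the chromosome arm from which no sequence is shown, and for the 4 strongest with the GAGA factor repeat GAGAG in this window (1 site belongs to both sets, which leaves 11 sequences). Capitals mark GAGAG on the strand shown, or CTCTC where the repeat is on the other strand, and names give the flanking coding genes. Bases are from the RefSeq assembly of the release 6 genome (dm6), plus strand, 5′ to 3′.
COX7AL2–CG31668, 2L:2202374-2202474: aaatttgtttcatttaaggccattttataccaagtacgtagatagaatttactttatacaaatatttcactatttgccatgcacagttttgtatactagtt
CG43245–CG12523, 3L:10776536-10776636: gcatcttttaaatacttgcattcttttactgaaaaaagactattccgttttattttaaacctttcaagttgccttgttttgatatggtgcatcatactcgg
CG43131–RabGGTa, 3R:5113223-5113323: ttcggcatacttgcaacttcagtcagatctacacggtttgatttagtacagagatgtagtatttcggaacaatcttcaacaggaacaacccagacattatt
COX7AL2–CG31668, 2L:2199289-2199389: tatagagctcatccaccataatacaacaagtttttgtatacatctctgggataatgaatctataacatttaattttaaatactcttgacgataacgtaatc
klu–Fad2, 3L:11010576-11010676: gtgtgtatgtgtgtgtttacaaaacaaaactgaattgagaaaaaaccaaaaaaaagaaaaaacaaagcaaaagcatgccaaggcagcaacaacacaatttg
Atf3–CG32812, X:1277105-1277205: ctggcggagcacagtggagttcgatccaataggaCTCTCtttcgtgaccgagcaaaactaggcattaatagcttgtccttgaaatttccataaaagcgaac
CG7906–fz, 3L:14272550-14272650: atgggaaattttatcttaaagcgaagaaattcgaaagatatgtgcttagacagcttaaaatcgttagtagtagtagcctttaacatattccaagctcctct
Gbs-70E–CG34039, 3L:14552978-14553078: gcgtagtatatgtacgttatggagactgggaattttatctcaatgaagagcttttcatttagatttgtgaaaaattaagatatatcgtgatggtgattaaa
CG12689–ct, X:7604669-7604769: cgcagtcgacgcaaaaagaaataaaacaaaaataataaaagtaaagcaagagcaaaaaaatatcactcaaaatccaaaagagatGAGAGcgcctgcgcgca
COX7AL2–CG31668, 2L:2203391-2203491: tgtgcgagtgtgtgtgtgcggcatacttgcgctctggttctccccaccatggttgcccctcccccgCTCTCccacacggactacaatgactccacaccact
drl–CG31797, 2L:19226484-19226584: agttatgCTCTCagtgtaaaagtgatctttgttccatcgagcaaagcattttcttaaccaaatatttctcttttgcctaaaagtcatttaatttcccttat

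Of the 8 strongest sites shown, only the one between Atf3 and CG32812 held the repeat within these 101 bp. In the wider window of 201 bp used for all counts below, the site of second rank, between COX7AL2 and CG31668, held it too. Summits were rich in A and T. The 201 bp around the summit had a median GC content of 35.3% at the 647 sites against 41.8% in windows of the same size centred 1 kb to each side, and the summit was the lower one at 467 sites (72.2%). In the replicate lists, the medians were 36% ± 0.574 at summits and 41.7% ± 0.380 in flanks (SD, n = 3; exact two-sided sign-flip permutation test over replicates, p = 0.25). With 3 replicates this test cannot give a p under 0.25, so none of the values tested with it below can pass 0.05. Summits within 1 kb of a TSS showed the same kind of difference (37.3% against 42.8% in their flanks), as did summits inside genes at 1 to 10 kb from a TSS (36.3% against 41%). No summit of the 647 lay in 1 of 5809 annotated transposable elements, 1 peak overlapped one, and the 31 bases centred on the summit occurred 1 time on the chromosome arms for all 647 sites.

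In signal, the sites resembled other Lpt-GFP peaks in the middle of the range, and fewer of them than of promoter summits were at the top. Signal is the value the authors give each peak within a list, and the scale differs between lists. Pooled signal had a median of 163 at the sites (quartiles 132 and 232), 176 at 2887 summits within 1 kb of a TSS, 168 at 2014 summits inside genes at 1 to 10 kb from a TSS, and 163 at 562 summits over 10 kb from every TSS. In replicates 1, 2 and 3, taking the strongest overlapping peak, median signal at the sites was 53.5, 72.6 and 48.7, against 58.5, 81.6 and 53.2 at promoter summits. The sites were below promoter summits in each replicate, with a log2 ratio of medians of −0.14 ± 0.0238 (SD, n = 3; exact permutation p = 0.25). Against summits inside genes the log2 ratio was −0.05 ± 0.0596 (exact permutation p = 0.5), and the sign was not the same in all replicates.

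Among the 611 IDR peaks of highest pooled signal were 33 of the sites (5.10%), 13.4% of promoter summits, 8.24% of summits inside genes and 4.63% of summits over 10 kb from every TSS. By replicate signal, the strongest 10% held 5.72%, 6.34% and 4.95% of the sites and 13.6%, 12.9% and 14.3% of promoter summits in replicates 1, 2 and 3. Summits over 10 kb from every TSS had 3.74%, 5.16% and 3.20%, below the sites in each replicate. The share was lower at the sites in all 3 replicates, with a difference of −7.93 ± 1.39 percentage points from promoter summits and −2.23 ± 0.204 points from summits inside genes (SD, n = 3; exact permutation p = 0.25 each).

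The sites repeated between replicates about as often as IDR peaks in general. Of the 647, 425 (65.7%) overlapped one of the 6110 strongest peaks of every replicate, against 63.5% of all IDR peaks. A further 160 did so in 2 replicates, 58 in 1 and 4 in none. IDR peaks are selected for repeating, so these shares are a description. Across sites, which share libraries and are not replicates, Spearman's rho of signal was 0.679 for replicates 1 with 2, 0.674 for 1 with 3, and 0.602 for 2 with 3 (638 to 642 sites). In each replicate, 63 to 65 sites (9.75% to 10.1%) took their value from a replicate peak that a neighbouring IDR peak also overlaps, so for these the replicate value belongs to a cluster of summits.

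The 25 strongest sites lay on 5 arms, 9 of them on 3L, and each belonged to the 6110 strongest peaks in every replicate. They were ranked by the pooled signal of the same replicates, so this is a description. Of the sites in the upper part by signal, 95.4% did so. The nearer coding gene turned its 5′ end to the site in 16, the flanking genes were divergent in 11, tandem in 10 and convergent in 4, and the nearest TSS was that of a coding gene in 19. The strongest site (2R:22678127-22678661, pooled signal 1352, rank 18 of all IDR peaks) lay between RYBP, which encodes a Polycomb-associated protein, and Ppa, which encodes an F-box protein. The genes converge on it from 7627 bp and 10595 bp (distances to their TSSs), and the nearest TSS is that of the noncoding gene lncRNA:CR44761. Its signal was 447, 572 and 330 in replicates 1, 2 and 3, or 450 ± 121 (SD, n = 3). Of all 647 sites it had the highest value in replicates 1 and 2, and in replicate 3 the value between COX7AL2 and CG31668 was higher.

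The site of second rank (2L:2202019-2202801, signal 1276) lay between COX7AL2, named for a subunit of cytochrome c oxidase, and CG31668. Replicate values were 406, 488 and 352 (416 ± 68.6, SD, n = 3), all above those of the lower-ranked sites among the 25 in the same replicate. Next came sites between CG43245 and CG12523 (3L:10776400-10776724; 240, 345 and 254) and between CG43131 and RabGGTa, which encodes a subunit of an enzyme that adds lipids to Rab proteins (3R:5113120-5113431; 228, 284 and 221). At both, replicate 2 was the highest and replicates 1 and 3 lay close together.

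The site next in rank outside these gaps lay 1438 bp upstream of klu, a zinc finger gene (3L:11010484-11010740; 206, 226 and 142). The next lay 1871 bp upstream of Atf3, a bZIP factor gene (X:1277054-1277316; 150, 205 and 195). Another lay 1743 bp upstream of fz, which encodes the Frizzled receptor of Wingless signalling and planar polarity (3L:14272438-14272685; 164, 204 and 178). Replicate 2 was highest at all 3, and the lowest was replicate 3 at klu and replicate 1 at Atf3 and fz.

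Further sites in this range lay 2053 bp upstream of Gbs-70E, a glycogen-binding subunit of protein phosphatase (187, 207 and 148), and between E(spl)mbeta-HLH and E(spl)malpha-BFM, target genes of Notch, 1787 bp upstream of the latter (144, 215 and 170). At 3653 bp upstream of Eaf6 and 19030 bp upstream of Blimp-1, an ecdysone-responsive repressor gene, values were 159, 269 and 106. At 3709 bp upstream of ct, which encodes the homeodomain protein Cut, they were 138, 264 and 120. The last pair spread more widely, with replicate 2 over 2 times as high as replicate 3.

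One more of the 25 lay between COX7AL2 and CG31668 and is described with that gap. Another 12 had mean replicate signals of 148 to 169. They flanked Gr93d and glec, CG9922 and foxo (the forkhead factor of insulin signalling), Obp56g and Obp56h (odorant-binding proteins), hng3 and CG13898, spel1 and ppk, and out and nAChRalpha7. Others flanked CG12078 and CG43389, Osi21 and CG14926, CG7557 and CG12289, BBS8 and ex (the Hippo pathway gene expanded), mah and tnc, and lz (a Runx factor) and c12.1. At all 25 sites replicate 2 gave the highest value, and replicate 3 the lowest at 15 and replicate 1 at 10. Median signal over all IDR peaks was also highest in replicate 2 (56.2, 78.3 and 49.7).

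**Figure D1:**
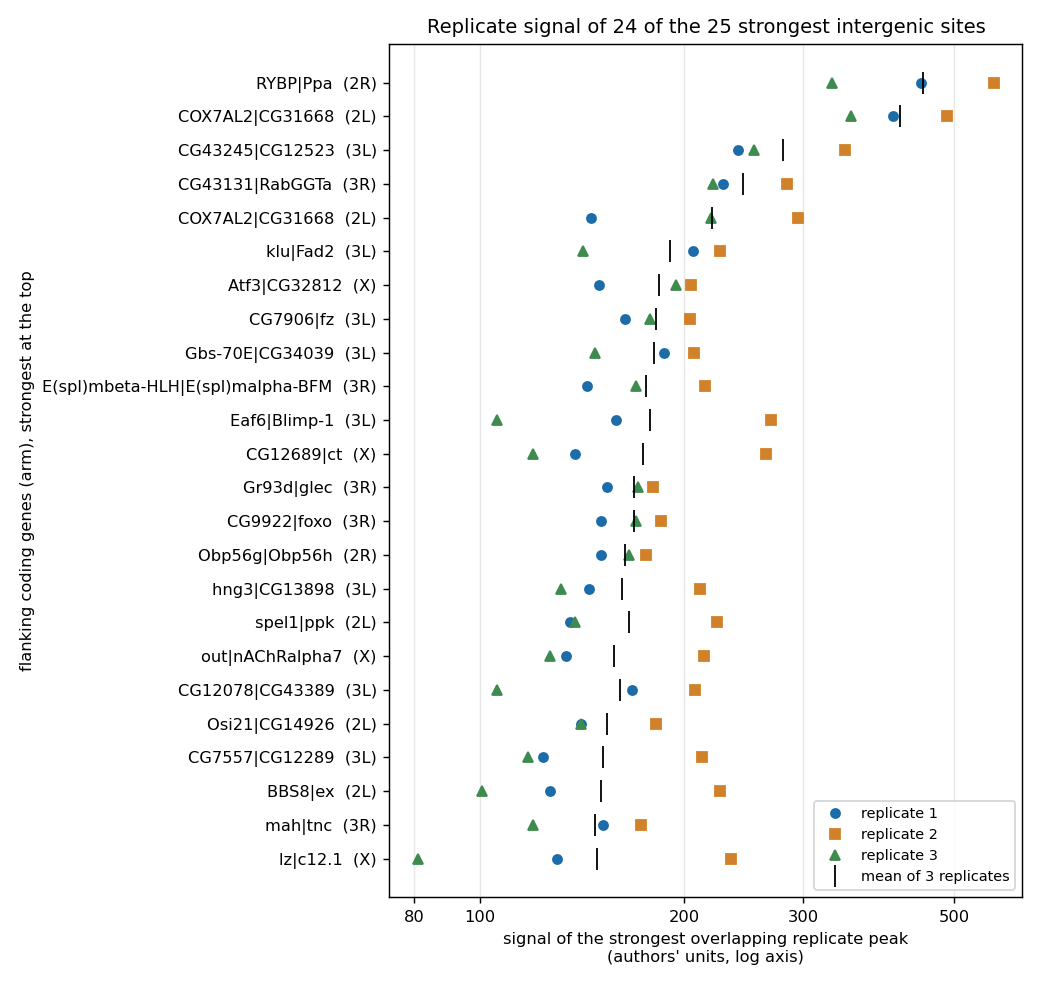
Signal of 24 of the 25 strongest intergenic sites in each replicate (authors' units on a log axis), with the mean of 3 replicates as a black tick and the flanking coding genes and arm at the left. The site between RYBP and Ppa stands at 330 to 572 and that of second rank at 352 to 488, while most others fall between 100 and 300 and replicate 2 is highest at all 24.

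Spread between replicates, measured as the SD of log2 signal after each replicate was centred on its IDR median, had a median of 0.287 over 637 sites with a value in every replicate, against 0.326 at promoter summits and 0.290 at summits inside genes. The 5 most even sites lay between Fs and scb, Aps and CG14147, CG6168 and CG6163, Ste:CG33236 and CG12479, and CG4161 and sna (SD 0.00762 to 0.0257). The 5 least even lay between Adk3 and Gadd45, knrl and CG13251, CG8180 and CG12964, comm and CG6244, and Eaf6 and Blimp-1 (SD 0.969 to 1.06). At the Adk3 and Gadd45 site, replicate values were 260, 370 and 72.5 while pooled signal was only 132. A replicate value is that of the strongest overlapping peak, which may be centred outside the site, and whether this was so here was not tested. At the least even site, a weaker one between Eaf6 and Blimp-1 (pooled signal 120), they were 38.7, 76.9 and 11.9. In both, replicate 3 was the low one.

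Sites were thinner in this sequence than IDR peaks over the arms as a whole, promoters included. The sequence that the rule admits, outside genes and over 1 kb and at most 10 kb from a TSS, made up 20.7 Mb or 15.5% of the 6 arms, and it is called eligible here. It held 31.3 sites per Mb, against 45.7 IDR peaks per Mb over the arms, so the share of peaks was 0.684 times the share of sequence and 0.691 ± 0.0672 times in the replicates (SD, n = 3). The value for the arms includes 2887 summits within 1 kb of a TSS, which the rule leaves out. A density for other sequence away from TSSs is not given here.

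Chromosome arm 3L held more sites than its sequence share. It carried 216 of the 647 sites (33.4%) on 22.0% of the eligible sequence, or 47.4 per Mb, which is 1.52 times the density of all eligible sequence. In replicates 1, 2 and 3 the ratio was 1.55, 1.55 and 1.51 (1.54 ± 0.0227, SD, n = 3; exact permutation p = 0.25). The X held 61 sites at 0.635 times the overall density, with 0.539, 0.670 and 0.655 in the replicates (0.621 ± 0.0713; exact permutation p = 0.25). No replicate of 3L came near those of the X, and 2L, 2R and 3R lay between them at 0.892, 0.894 and 0.944.

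The arms differed less over all peaks than at these sites. Of all IDR peaks, 22.7% were on 3L and 18.7% on the X. Sites made up 15.6% of the IDR peaks of 3L (15.7%, 14.4% and 17.3% in the replicates) and 5.33% of those of the X (4.69%, 5.26% and 5.72%), with 9% to 11.8% on the other large arms. Pooling males and females gives fewer copies of the X than of an autosome, and no correction was made for copy number. Whether copy number has a part in the X values was not tested. Chromosome 4 held 1 site, between lgs, a component of Wingless signalling, and dati, on 0.132 Mb of eligible sequence.

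Part of the difference on 3L came as more sites per gap. A gap here is the sequence between neighbouring coding genes. Arm 3L held 92 gaps with a site and 2.35 sites per such gap, against 1.45 to 1.74 on the other large arms. Counted as gaps, 3L had 20.2 per eligible Mb, the X had 13.7, and 2L, 2R and 3R had 17.8, 16.1 and 17.5.

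Sites were denser close to genes. The median distance to the nearest TSS was 3090 bp. At 1 to 2 kb lay 200 sites, 1.40 times the overall density (1.41, 1.50 and 1.32 in the replicates; 1.41 ± 0.0913, SD, n = 3). At 5 to 7.5 kb the ratio was 0.719 (0.709, 0.623 and 0.739) and at 7.5 to 10 kb 0.753 (0.818, 0.735 and 0.828). In each of these 3 bins all replicates lay on the same side of 1 (exact permutation p = 0.25 each), whereas 2 to 3 kb and 3 to 5 kb stood at 1.00 and 1.01.

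The nearer coding gene presented its 5′ end to 352 sites (54.4%) and its 3′ end to 295, while 51.4% of eligible sequence lies nearer to a 5′ end. The replicate shares were 54.5%, 56.0% and 54.9% (55.1% ± 0.757, SD, n = 3; exact permutation p = 0.25 against an even split), and relative to eligible sequence the 5′ density was 1.07 ± 0.0147. The share was 58.7% with a lower limit of 500 bp and 49.0% with one of 2000 bp. Beyond 2 kb, 5′ ends were thus in the minority by count. The share of sequence nearer to a 5′ end is known for the 1 kb limit only, so these 2 values have no such reference. Between divergent genes lay 196 sites at 1.15 times the overall density (1.14 ± 0.0142 in the replicates), between tandem genes 322 at 0.978 times, and between convergent genes 129 at 0.909 times (0.901 ± 0.0538).

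**Figure D2:**
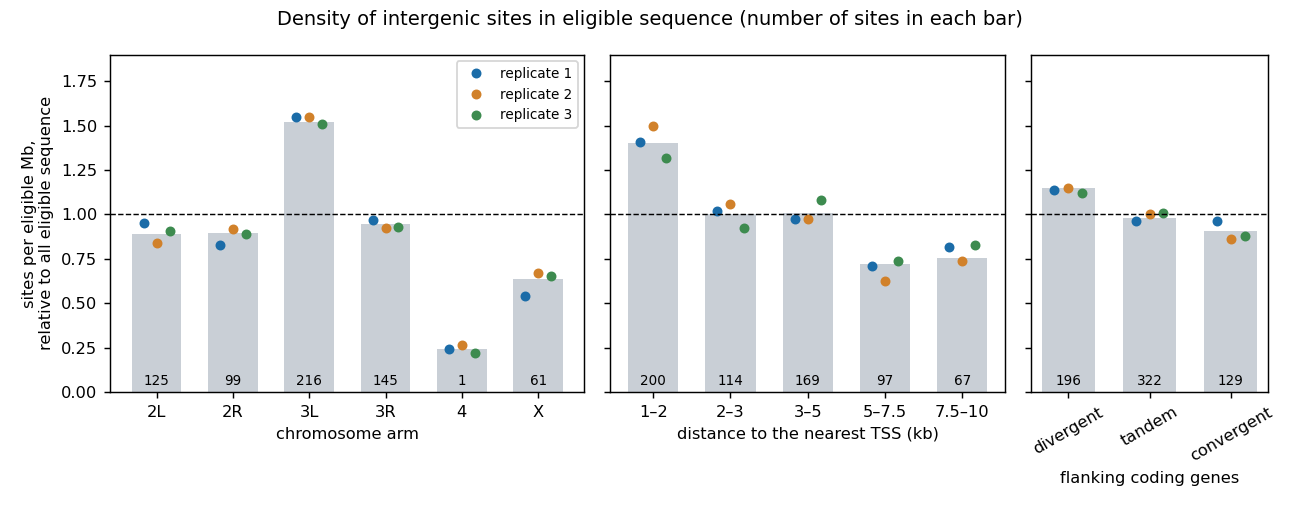
Density of intergenic sites per Mb of eligible sequence, relative to all eligible sequence (dashed line at 1), by chromosome arm, by distance to the nearest TSS in kb and by orientation of the flanking coding genes. Bars are the IDR sites with their number, and dots the 3 replicates; 3L stands at 1.52 with all replicates above 1.5, the X at 0.635 and the 1 to 2 kb bin at 1.40.

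The nearest TSS belonged to a coding gene at 409 sites, to a noncoding RNA gene at 214 and to a tRNA gene at 20. Relative to eligible sequence of the same kind, these densities were 0.952, 1.13 and 2.52 times the overall one. For tRNA genes the replicates gave 2.51, 2.47 and 2.60, but the 20 sites lay in 7 gaps, and 7 of them in the gap between hng3 and CG13898 alone. The nearest of the 20 was 1193 bp from the tRNA start, so these values describe neighbourhoods that hold tRNA genes.

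The sites lay in a small share of the gaps. Of 4028 gaps with eligible sequence, 358 (8.89%) held a site, and 222 of these held 1. The 358 gaps held 20.8% of the eligible sequence, with a median of 9 kb of it each against 1.73 kb over all 4028. In 38 gaps lay 4 or more sites, 201 in all (31.1%), on 3.71% of the eligible sequence, and 19 of these gaps were on 3L. The 38 were picked by their number of sites, so a high density in them follows from the choice. Long gaps have more room: the median gap around a site was 17469 bp, against 473 bp over 10424 gaps between coding genes. These medians are not alike. The first counts a gap once for each of its sites, and the second includes gaps too short to hold eligible sequence.

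The gap between hng3 and CG13898 on 3L (47.9 kb) held 11 sites, the most of any. The strongest had signals of 145, 211 and 132 in replicates 1, 2 and 3, and the one next to CG13898 had 123, 165 and 138. Replicate 2 was highest at both, and the pooled signals of the 11 ran from 112 to 490. A pair of isoleucine tRNA genes stands between the sites. The neighbouring gap between CG13898 and Sf3b3, a splicing factor gene, held 4 more.

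The gap between CG7320 and CheA75a (48.5 kb, 10 sites, signals 111 to 425) adjoins that between hid and CG7320 (15.9 kb, 4 sites, signals 113 to 388). The pro-apoptotic gene hid (head involution defective) is induced by ecdysone in dying larval tissues. Its strongest upstream site lay 5065 bp from the TSS, with values of 99.9, 180 and 114, and hid also had a promoter summit (signal 436). In CG7320 to CheA75a the strongest site had 136, 176 and 131, and 9 of its 10 sites were among the strongest peaks of every replicate.

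Between Ids and sty on 3L (21.1 kb) lay 10 sites. The gene sty encodes Sprouty, an antagonist of receptor tyrosine kinase signalling, and its 3′ end faces the gap. The strongest site stood 18526 bp downstream of the sty TSS with values of 85.7, 165 and 134. The next, at 19918 bp, had 95.4, 130 and 70.7. Replicate 2 was highest at both, and sty itself had no promoter summit.

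The shortest of the crowded gaps with 7 or more sites was that between COX7AL2 and CG31668 on 2L, 5.81 kb long. All 7 of its sites were among the strongest peaks of every replicate, with pooled signals of 160 to 1276. The site nearest to COX7AL2, 1427 bp upstream, had 146, 295 and 219, and that nearest to CG31668 had 151, 179 and 117. All IDR summits of this gap were sites, and no noncoding gene is annotated in it.

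**Figure D3:**
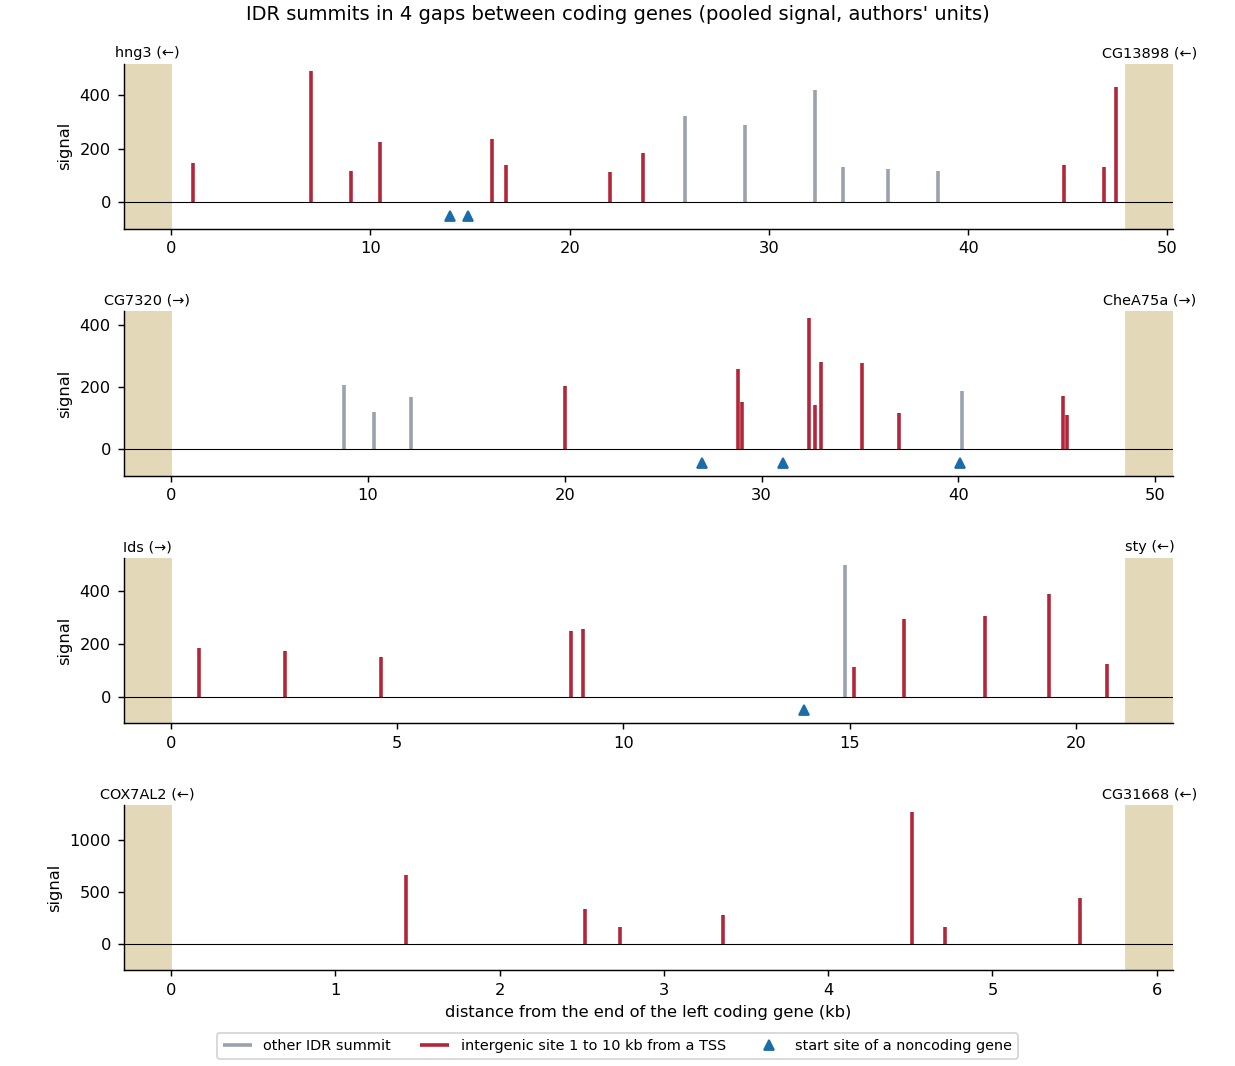
IDR summits in 4 gaps between coding genes, as distance in kb from the end of the left gene against pooled signal in the authors' units. Red bars are intergenic sites 1 to 10 kb from a TSS, grey bars other IDR summits, triangles starts of noncoding genes and arrows the direction of each flanking gene; the gap between COX7AL2 and CG31668 holds 7 sites within 5.81 kb and the highest signal, 1276.

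The other crowded gaps held 4 to 7 sites each, with overlapping peaks counted separately. Of those on 3L, CG6163 to CG11726 held 7, and 5 each lay in CG43245 to CG12523, Eaf6 to Blimp-1, CG13309 to dally (a heparan sulphate proteoglycan of morphogen gradients), Or67d to CG12362, CG6168 to CG6163, CG17154 to vers, CG33795 to CG33687 and Aps to CG14147. With 4 each followed CG7906 to fz, CG43219 to Eip78C, CG9701 to CG42852 and Dyro to CG7573. On 3R, CG18404 to heca and Dip-B to tal-1A held 7, soti to cv-c 6, and CG11550 to CG42693, Cyt-c1L to eEF1gamma (around the microRNA genes mir-279 and mir-996), Gr93a to Gr93b and CG45544 to CG14506 held 4.

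On 2R, CG8635 to ptc held 6, lola to psq and ND-B14.7 to shg (the E-cadherin gene) held 5, and CG4372 to CG9294, 18w to CG11041 and fj to Ote held 4. On 2L, RFeSP to chinmo held 5, and Rh5 to Wdr81 and CG10750 to dnt held 4. On the X, Ste:CG33236 to CG12479 held 5 and CG7378 to CG43759 held 4. These gaps were 3.49 to 138 kb long. In 18 of the 38 neither flanking gene had a promoter summit, and in 3 both had one, among them lola and psq, the BTB factor genes, with promoter signals of 433 and 415.

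The 636 coding genes that flank a site made up 4.56% of 13945 coding genes and 10.4% of the 6093 that border eligible sequence. Of the 636, 178 (28.0%) had an IDR summit within 1 kb of their own TSS, against 19.2% of all coding genes and 18.7% of those bordering eligible sequence. The replicates gave 27.7%, 31.9% and 22.7% (27.4% ± 4.63, SD, n = 3). Seen from the sites, 320 (49.5%) had no flanking gene with a promoter summit, 280 had 1 and 47 had both. At 209 sites (32.3%) the nearer coding gene had one.

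Genes of signalling pathways had larger shares of flanking genes than all coding genes, by counts that carry no test. Some genes are in several lists. The lists were chosen with earlier results of these data known, and the part of that choice in these shares was not tested. Of the 23 gene lists, 15 had a larger share of flanking genes than the 10.4% of all genes bordering eligible sequence, and 12 a higher density than 31.3 sites per eligible Mb. Flanking genes were 8 of 35 in Wingless and Hedgehog signalling (8 of the 23 that border eligible sequence, with 109 sites per Mb), 4 of 19 in the Hippo pathway (of 11, 114 per Mb) and 4 of 18 in JNK and AP-1 signalling (of 11, 131 per Mb). They were 4 of 26 in Dpp and activin signalling (of 14, 159 per Mb), 5 of 31 in EGF receptor and JAK-STAT signalling (of 14, 69.5 per Mb) and 6 of 35 in Notch signalling (of 26, 71.4 per Mb). Each rests on 5 to 19 sites.

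Among Wingless and Hedgehog genes, fz came first, as given above. The Hedgehog receptor gene ptc had a site 5271 bp upstream with signals of 122, 168 and 93.0. A site 5193 bp upstream of the ligand gene Wnt10, also flanking the ligand gene Wnt6, had 101, 111 and 82.0. The ligand genes hh and wg themselves flanked weak sites, with pooled signals of 133 and 110 and values of 35.6, 59.9 and 35 at hh and 50.5, 46.2 and 15 at wg.

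In the Notch pathway the ligand gene Ser followed the E(spl) genes, with 103, 199 and 82.0 at its strongest site, 26431 bp downstream of its TSS. The gene fng, a glycosyltransferase that tunes Notch, had 90.7, 112 and 80.6. Of the Hippo genes, ex had 127, 226 and 101 at a site 3673 bp upstream, and fj, ft and ds, which act in the Fat and Dachsous branch, had pooled signals of 204, 192 and 154. Replicate 2 was the highest at Ser, fng and ex.

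The BMP ligand gene dpp had a site 1706 bp upstream with 109, 126 and 75.5, and its inhibitor Dad one 1064 bp upstream with 58.4, 74.7 and 45.9. The antagonist gene sog and the activin ligand gene daw flanked weaker sites (pooled signal 143 and 117). After sty, the EGF receptor and JAK-STAT list was led by aop, an ETS repressor gene (89.7, 114 and 91.8), kek1, an inhibitor of the EGF receptor (81.1, 97.3 and 57.2), and the ligand gene upd1 (39.3, 82.0 and 52.9). In JNK and AP-1 signalling, kay, the Fos gene, had 67.9, 94.1 and 66.8, and Mmp2, Gadd45 and Traf4 had pooled signals of 154, 132 and 125. All 4 of these also had a promoter summit, against 9 of the 18 genes of the list. In the other signalling lists fewer flanking genes did. They were 1 of 8 for Wingless and Hedgehog (13 of all 35) and 1 of 5 for EGF receptor and JAK-STAT (12 of 31). Notch had 3 of 6 (15 of 35), Hippo 2 of 4 (10 of 19) and Dpp and activin 2 of 4 (8 of 26).

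Of 41 genes of the ecdysone response, 8 flanked a site (of 28 that border eligible sequence), with 21 sites at 78.4 per eligible Mb. After Blimp-1 and hid came Eip78C, an ecdysone-induced nuclear receptor gene, with 94.2, 126 and 60.6 at 1764 bp upstream, and Ldh, lactate dehydrogenase, with 75.9, 111 and 59.1 at 3865 bp upstream. Of the 8, 6 had a promoter summit, and of the list as a whole 21. Of 21 nuclear receptor genes, 5 flanked a site, or 31.2% of the 16 that border eligible sequence. They were Eip78C, Hr38 (59.1, 106 and 24.4), knrl (68.1, 58.0 and 45.8), tll (52.2, 59.3 and 34.8) and kni. Only Eip78C of these had a promoter summit, while 13 of the 21 did.

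Genes that pattern discs and appendages gave a different reading by share and by density. Of 58, 14 flanked a site, 25% of the 56 that border eligible sequence, but the 24 sites came on 0.947 Mb of it, or 25.3 per Mb, below the 31.3 of all eligible sequence. After ct, the list was led by dysf (102, 140 and 71.5), dpp and hth (85.8, 106 and 85.9, at 145856 bp from the TSS). Neurogenic and proneural genes had 5 of 26 flanking a site, 27.8% of the 18 that border eligible sequence. Their density of 33.1 sites per Mb was close to the 31.3 of all eligible sequence. Their leading genes were hry (77.8, 112 and 60.6), sna (39.1, 73.5 and 44.7), SoxN (54.2, 57.4 and 43.1) and wor (30.8, 90.3 and 34.4). All 12 Hox cluster genes border eligible sequence, and abd-A alone flanked a site (8.33%, near the 10.4% of all bordering genes). Its values were 60.5 and 57.4 in replicates 1 and 3, with no overlapping peak in replicate 2.

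BTB and GAGA factor genes had 3 of 18 flanking a site, 23.1% of the 13 that border eligible sequence, against 10.4% of all bordering genes. They were lola and psq with a shared site of 85.7, 123 and 84.9, and chinmo with 33.0, 63.5 and 55.6. Cell death genes had 2 of 13 (22.2% of 9 bordering), hid and p53 (pooled signal 116). Muscle genes had 3 of 25 (15.8% of 19 bordering, 35.9 sites per Mb), Act87E (86.6, 107 and 72.8), Act57B and sls.

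Some further lists had fewer sites per eligible Mb than the 31.3 of all eligible sequence, although chemoreceptor and cytochrome P450 genes, at 11.8% and 13.2% of their bordering members, exceeded the share of 10.4%. Cuticle protein genes had 5 of 124 flanking a site (6.58% of 76 bordering, 22.1 sites per Mb). They were led by Cpr62Bc, Cpr72Ea, Cpr51A and Cpr35B with pooled signals of 165, 151, 141 and 118. Chemoreceptor genes had 12 of 180 (29.3 sites per Mb), led by Gr93d (154, 180 and 171), Or43a (105, 139 and 88.3), Gr93a (92.7, 144 and 87.8) and Gr89a (82.4, 146 and 78.2). None of the 12 had a promoter summit, and of all 180 only 2 did. Cytochrome P450 genes had 5 of 85 (25.2 sites per Mb), led by Cyp4d21, Cyp9f2, Cyp12e1 and Cyp9b2 (306, 299, 274 and 155).

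The adhesion genes of the dpr and DIP families had 2 of 32 (DIP-delta and dpr17), or 6.67% of the 30 that border eligible sequence. Cytoplasmic ribosomal proteins had 1 of 93 (RpLP0), or 2.86% of 35 bordering, against 10.4% of all bordering genes. No gene flanked a site among 19 small heat shock and stress genes, 20 antimicrobial peptide genes, 24 glue and Eig71E genes and 73 mitochondrial ribosomal protein genes. Of these 4 lists only 9, 5, 6 and 11 genes border eligible sequence, and heat shock and mitochondrial ribosomal genes had 6 and 23 promoter summits.

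**Figure D4:**
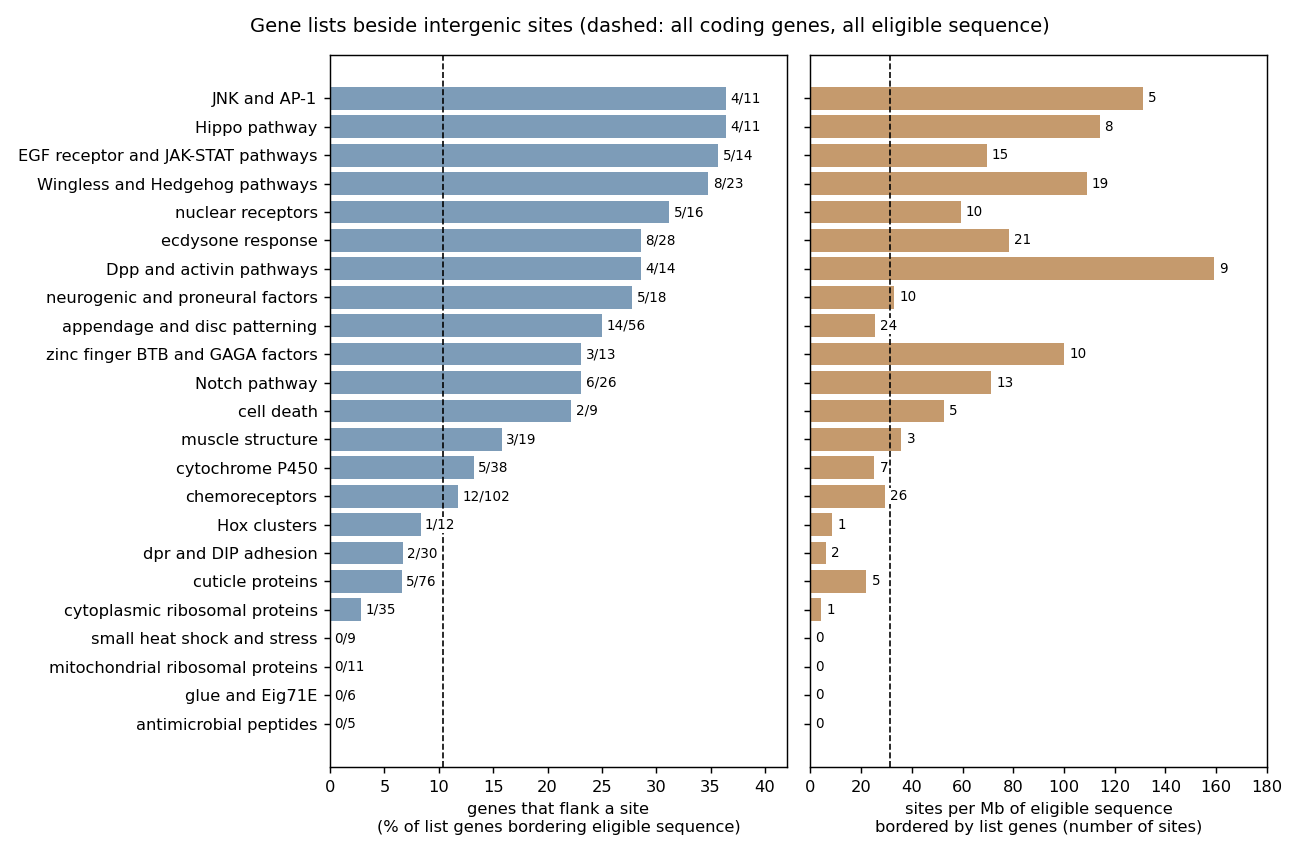
Genes of 23 lists beside intergenic sites: at the left the share of list genes bordering eligible sequence that flank a site (numbers at the bars), at the right sites per Mb of eligible sequence bordered by the list, with the number of sites. Dashed lines mark all coding genes (10.4%) and all eligible sequence (31.3 per Mb); Wingless and Hedgehog genes lie above both lines, disc patterning genes above the first and below the second.

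In windows of 201 bp, the GAGA factor repeat was as frequent at the sites as in their flanks. With 50 bp to each side of the summit it was less frequent at the sites (ratio 0.707). The repeat GAGAG, on either strand of the 201 bp around the summit, was found at 139 sites (21.5%) and in 21.6% of flanking windows, a ratio of 0.996. Replicates 1, 2 and 3 gave 1.03, 1.12 and 0.975 (1.04 ± 0.0748, SD, n = 3; exact permutation p = 0.5). Promoter summits held it at 33.1%, 1.41 times their flanks, and summits inside genes at 31%, 1.27 times theirs. The log2 ratio of the fold at the sites to that at promoter summits was −0.53, −0.58 and −0.21 in the replicates (−0.44 ± 0.198; exact permutation p = 0.25), and against summits inside genes −0.26, −0.28 and −0.08. The sites were the lower ones in each replicate. Sites with the repeat had a median pooled signal of 171 and those without it 163 (log2 ratio over replicates 0.09 ± 0.113; exact permutation p = 0.5).

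Of 20 motifs searched on both strands, 14 were less frequent at the summits of the sites than in flanks, and 11 of them were so in every replicate. Flanks held more G and C, and motif counts move with base composition, whose part in these ratios was not tested. The forkhead motif GTAAACA was at 2.01% of sites and 4.10% of flanks (0.491 times; 0.620 ± 0.0690 in the replicates) and the Snail-type E-box CAGGTG at 3.25% and 6.34% (0.512 times; 0.645 ± 0.160). The ETS motif CCGGAA (0.653), the GATA motif GATAAG (0.684), the Suppressor of Hairless motif GTGGGAA (0.684), the STAT motif TTCNNNGAA (0.703) and the Scalloped motif GGAATG (0.716) were also below 1. Several of these ratios were also below 1 at other Lpt-GFP summits: the Snail-type E-box stood at 0.567 at promoter summits and 0.627 inside genes, the ETS motif at 0.552 and 0.536, and the Scalloped motif at 0.695 and 0.796. The forkhead motif stood at 1.02 and 1.03 there. Also below 1 at the sites were the nuclear receptor core AGGTCA (0.755, with 0.664 at promoter summits and 0.745 inside genes), the BEAF-32 motif CGATA (0.773) and the palindromic E-box CACGTG (0.800, 12 sites). The Zelda motif CAGGTAG (0.800, 4 sites) and the CA repeat (0.812, 28 sites) were not below 1 in every replicate. The CREB/ATF palindrome was at no site and in only 0.232% of flanks. Counts of the Zelda and CREB/ATF motifs are too low to read a ratio from.

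More frequent at summits in every replicate were 3 motifs. The AP-1 motif TGANTCA, the site of Fos and Jun, was at 34 sites (5.26%, 1.31 times flanks; 1.07, 1.42 and 1.25 in the replicates, exact permutation p = 0.25). It stood at 3.81% of promoter summits, 0.866 times their flanks, and at 5.71% of summits inside genes, 1.11 times theirs, a higher share than at the sites. The DNA replication element TATCGAT was at 9 sites (1.80 times) and the Motif 1 element at 3 (3.00 times), counts too low to read a ratio from. The Grainyhead palindrome (5 sites), the homeodomain core TAATTA (1.13) and the core GAAAG of the Blimp-1 motif (1.04) were not above 1 in every replicate. Each TATCGAT match also holds the BEAF-32 motif CGATA on 1 strand.

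**Figure D5:**
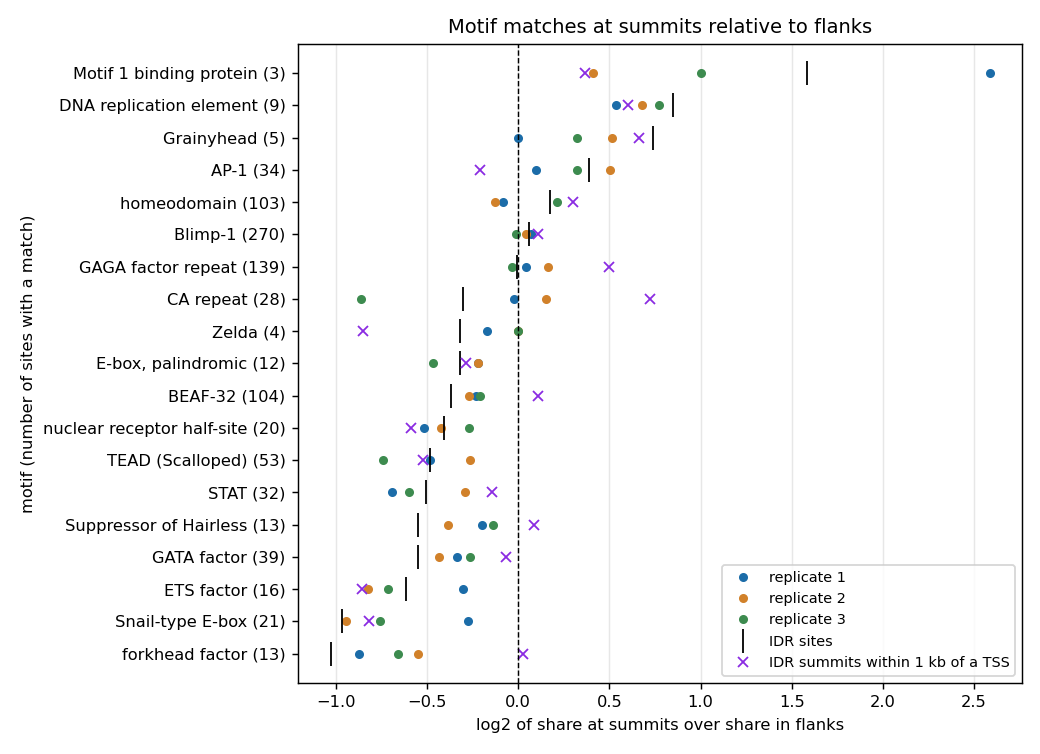
Log2 ratio of the share of summit windows to the share of flanking windows that hold each motif, for the 19 motifs found at a site, with the number of sites in brackets. Dots are the 3 replicates, black ticks the IDR sites and crosses IDR summits within 1 kb of a TSS; the GAGA repeat lies at 0 for the sites and higher for promoter summits, and the forkhead motif and the Snail-type E-box have the lowest ticks.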

How the data were processed

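Peak lists of 3 replicates, of the pooled replicates and of the IDR selection were deposited in the narrowPeak layout on dm6. Per the labels, chromatin was sonicated to 200 to 800 bp. Per the deposited descriptions, the authors made the IDR list from all replicate lists together with the pooled one. Behind each of these stand alignments and another file, which they also used for control-normalized tracks. Aligner, caller and IDR cutoff: not given in the sources used here. The deposited lists give a signal within each list, a −log10 q-value (at its maximum for 562 sites) and a summit offset. Read depth is unknown.

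Distances were taken to the TSSs of Ensembl release 115, any biotype except transposable elements, and sequence from the RefSeq release 6 genome. Replicate values are the strongest overlapping peak (at least 1 shared base), and replicate SDs of shares come from the 6110 strongest peaks of each list. Tests over replicates were exact two-sided sign-flip permutations (smallest p 0.25). Motif flanks were centred 1000 bp from the summit. Interval and motif functions were tested on simulated positions and sequences.

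The sites and gene lists were chosen with earlier results of these data known. Named were the 25 strongest sites, up to 4 genes a list, gaps with 4 or more sites, and the 5 most and least even sites. Among the named, 1 gap and its strongest site are not reported here. In the lists, 6 symbols were updated. Alternatives covered the TSS limits, coding genes only, peak midpoints, stricter peaks, leaving out each replicate, motif windows and, chosen after seeing the data, 1 summit per merged region or gap. Computation and plots used matplotlib 3.10.9, pandas 2.3.3 and numpy 2.4.6 under Python 3.11.15.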

Additional observations from a re-analysis of the deposited data

How the results depend on the processing

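No paired analysis was possible because all samples belong to 1 group. Of 83 recomputed values, 45 stayed within 1 SD of the replicates. Limits at 500 and 2000 bp, upper limits of 5000 and 20000 bp, and coding genes only gave a share of IDR summits of 12.7%, 7.32%, 7.91%, 11.8% and 11.9%, and a share of nearer 5′ ends of 58.7%, 49.0%, 57.6%, 52.3% and 57.9%. The GAGAG ratio was 1.10 over 2000 bp from a TSS and 1.07 up to 20000 bp, on the other side of 1, then 0.898 up to 5000 bp and 0.707 in windows of 50 bp to each side. The median signal of sites relative to all IDR peaks (0.961) was 0.985 up to 5000 bp, 0.933 in the upper part by signal and 0.930 among peaks strong in every replicate. For the upper part, the 5′ share was 53.6%, flanking genes with a promoter summit 19.1% (all coding genes 11.5%) and sites strong in every replicate 95.4%. That promoter share was 19.2% (12.5%) with peaks strong in every replicate and 23.1% (15.9%) within 500 bp. With the 3055 strongest peaks per replicate, 30.3% of sites were strong in all.

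Leaving out each replicate gave 0.912 to 0.957 for relative signal, 54.7% to 55.4% for 5′ ends, 19.5% to 24.2% for promoter summits (all coding genes 13.2% to 14.8%) and 71.4% to 76.5% for sites strong in the others. With 1 summit per merged region, the 5′ share was 53.1%. With 1 per gap, the share of IDR summits was 5.86%, relative signal 1.10 (on the other side of 1), 5′ ends 52.5%, GAGAG 0.834 and strong sites 71.2%; only the strongest summit of a gap enters. Some changes have a direction fixed by the setting. Asking for fewer replicates can only raise the share of strong sites, and using fewer strongest peaks can only lower it. Keeping fewer IDR peaks can only lower the share of all coding genes with a promoter summit. For the other changes the cause was not tested.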
